A study of Mus musculus with 19 samples.

Results

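Mir6240 and Mir6236 are 2 of the 2198 mouse miRNA hairpins of the annotation used here, and they were chosen by the lengths of their reads, few of which were of miRNA length. Their members are the sequenced reads, of any length, that matched either hairpin in sense orientation, with up to 1 mismatch, in the 19 libraries: 3086 distinct sequences with 2408427 reads on Mir6240, and 2897 distinct sequences with 46490 reads on Mir6236. Over all libraries together, 16.6% of the reads on Mir6240 and 29.8% of those on Mir6236 were 20 to 24 nt long. These values chose the members and are a description. Among hairpins with at least 1000 reads, the ones nearest to the 50% line were Mir24-1 (49.5%) and Mir5099 (49.6%) below it, and Gm44468 (50.7%) and Gm44347 (50.8%) above it.

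The libraries were made from cauda epididymal sperm of wild type C57BL/6J mice that were 8 weeks old at the start and were gavaged daily for 4 weeks with corn oil vehicle (control) or with 10 mg/kg body weight/day of the plasticizer dicyclohexyl phthalate (DCHP) in that vehicle. The sperm had been incubated in somatic cell lysis buffer, and RNA of 15–50 nt was cut from a gel. PANDORA-seq, in which the RNA is treated with the demethylase AlkB and with T4 polynucleotide kinase before library construction, was used for 4 control and 5 DCHP libraries. Traditional RNA-seq, with no such treatment, was used for 5 control and 5 DCHP libraries. The treatment label reads DCHP for every library, so that control status rests on the library titles. The study calls the libraries biological replicates of mice, and whether RNA of several mice was pooled in a library is not given in the sources used here. Each library held 21588335 to 56506344 reads of 15 to 45 nt.

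A miRNA is cut from a hairpin precursor by Drosha and Dicer, which leave a duplex with defined ends. The strand that is loaded into an Argonaute protein recognises target RNAs by the seed near its 5′ end. Reads of a hairpin that is processed this way pile up on 1 or both arms at 1 length. Sperm carry few full-length ribosomes but many fragments of rRNA and tRNA, and AlkB and the kinase make fragments readable whose modified bases or ends block the standard protocol. In RNA databases, some annotated hairpins share sequence with rRNA.

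Mir6240 lies on the + strand at chr5:114851948-114852064 of GRCm38 (mm10) and is 117 nt long; no other gene of GENCODE or RefSeq overlaps it. Mir6236 lies on the + strand at chr9:110281287-110281409, is 123 nt long and falls within the span of the long non-coding RNA Gm39429 of RefSeq. The annotated mature miRNAs are shown first, from RefSeq (GRCm38), with the seed (bases 2 to 8) in capitals. They differ in seed, and they occupy positions 26 to 51 of Mir6240 and 67 to 85 of Mir6236, counted from 1 at the 5′ end of each hairpin.
mmu-miR-6240: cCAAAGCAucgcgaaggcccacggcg
mmu-miR-6236: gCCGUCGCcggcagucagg

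Few reads that matched with at most 1 mismatch lay on the mature miRNAs. None of the 2408427 reads on Mir6240 and none of the 46490 on Mir6236 was the exact mature sequence. Inside the mature miRNAs, most reads differ from Mir6240 at positions 26 and 46 and from Mir6236 at positions 83 and 85. Reads with those bases cannot be the exact mature sequence. If they span the whole mature miRNA, they have more than 1 mismatch and are left out by this match. The mature miRNA was overlapped by at least 10 nt in 0.411% of the Mir6240 reads of PANDORA-seq and in 0.616% of those of traditional RNA-seq. For Mir6236 the shares were 0.174% and 1.36%, but its reads differ from the hairpin at positions 53, 57 and 66, before the mature miRNA, and this match leaves out any read with more than 1 such base. In a wider match that allows more mismatches to reads of at least 25 nt, described further on, 53.5% of the Mir6236 reads in PANDORA-seq and 46.1% of those in traditional RNA-seq overlapped the mature miRNA by at least 10 nt, against 0.347% and 0.873% for Mir6240. The 3 sequences with the highest mean in PANDORA-seq, among reads with at most 1 mismatch, are shown for each hairpin. They carry the lengths, ends and mismatches described further on for such reads. Capitals mark a base that differs from the hairpin.
Mir6240, positions 57 to 88: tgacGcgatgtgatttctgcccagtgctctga
Mir6240, positions 48 to 89: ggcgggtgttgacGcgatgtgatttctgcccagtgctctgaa
Mir6240, positions 56 to 88: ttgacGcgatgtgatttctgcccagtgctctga
Mir6236, positions 35 to 49: tggatggcgctggag
Mir6236, positions 11 to 33: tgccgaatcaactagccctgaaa
Mir6236, positions 3 to 33: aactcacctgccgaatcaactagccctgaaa

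The 32-nt sequence of Mir6240 held 33.1% of its PANDORA-seq reads with at most 1 mismatch. Its lowest, median and highest library had 1177, 1865 and 2669 reads per 1000000 total reads (RPM). The 42-nt sequence held 10.1% (313, 719 and 830 RPM), and the 33-nt sequence, which starts 1 base earlier than the 32-nt one, held 7.12% (261, 443 and 583 RPM). In traditional RNA-seq the 42-nt sequence came first, with 13.0% of the reads (9.65, 54.2 and 315 RPM over 10 libraries), ahead of the 32-nt one with 4.44% (8.16, 30.4 and 66.8 RPM). The third there was a 19-nt sequence at positions 74 to 92, which carried the other frequent mismatch and held 4.04%.
Mir6240, positions 74 to 92: tgcccagtgctctgaaTgt

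Among reads with at most 1 mismatch, no sequence dominated Mir6236 in this way. In the wider match described further on, its leading PANDORA-seq read had 3 mismatches and a mean of 67.5 RPM. With at most 1 mismatch, the first 3 of Mir6236 in PANDORA-seq matched the hairpin at every base. They held 9.96%, 8.83% and 5.62% of those reads, at 8.05, 7.13 and 4.54 RPM on average (n = 9). In traditional RNA-seq the same 15-nt sequence came first with 3.08%, and a 16-nt sequence with the same end held 2.56%.

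Read length differed between the members and between the methods. Mir6240 reads averaged 30.9 nt ± 0.84 (SD, n = 9) in PANDORA-seq, against 24.6 nt ± 2.42 (n = 10) in traditional RNA-seq. In PANDORA-seq, 35.5% were exactly 32 nt long and 10.9% were 33 nt, with lesser maxima at 22 and 23 nt (5.98% and 6.25%) and at 42 nt (10.5%). In traditional RNA-seq, 38.6% were 15 to 19 nt long, against 4.20% in PANDORA-seq, and the 42-nt reads made up 11.1% on average but between 1.17% and 27.2% by library. Mir6236 reads averaged 25.1 nt ± 1.08 in PANDORA-seq, with maxima at 15 nt (11.5%), 23 nt (14.2%), 31 nt (6.83%) and 35 nt (5.29%). In traditional RNA-seq they averaged 20.6 nt ± 0.98 and declined from 17.4% at 15 nt without a second clear maximum. These lengths are of reads with at most 1 mismatch. In the wider match, which holds reads of at least 25 nt, the commonest length on Mir6240 was 45 nt, the longest in the files, in both methods (22.6% in PANDORA-seq and, for traditional libraries, 14.8%), ahead of 32 nt in PANDORA-seq (18.6%) and of 42 nt in the other method (14.3%). On Mir6236 it was 39 nt (18.5%) in PANDORA-seq, and 38 nt (8.61%) for traditional libraries. Lengths by method were known when the hairpins were chosen and were not tested.

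**Figure D1:**
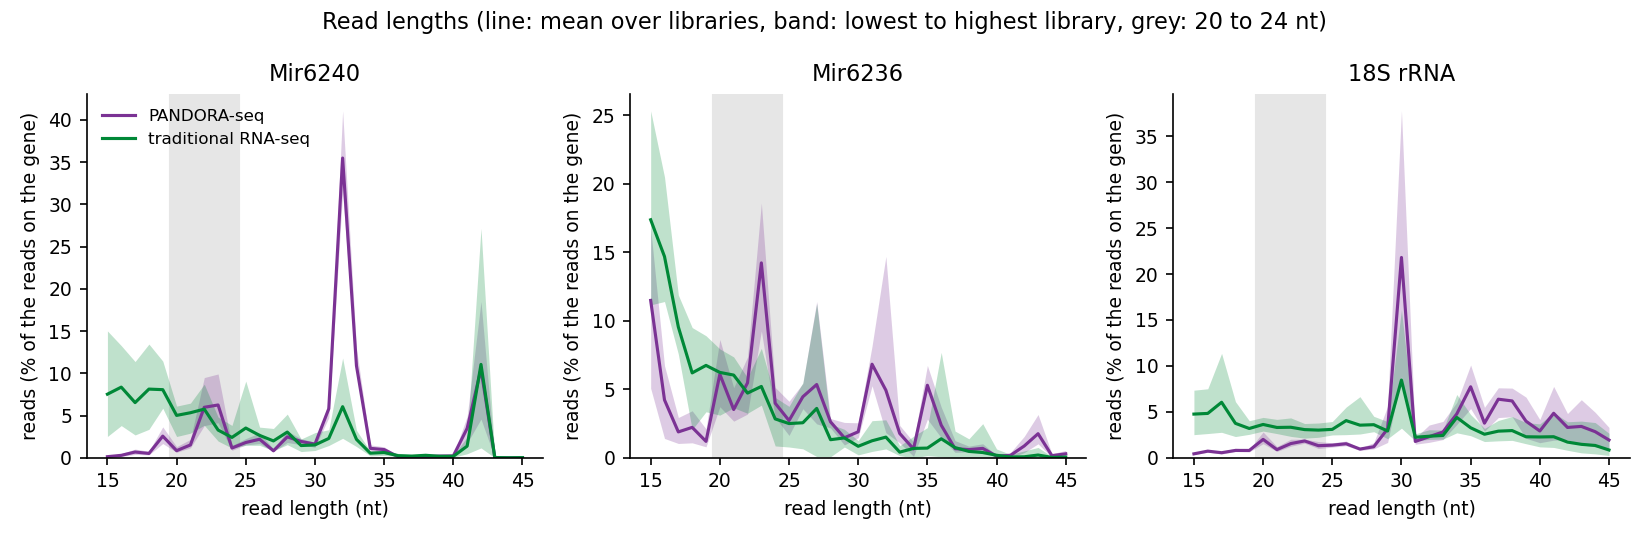
Length of the reads on Mir6240, Mir6236 and 18S rRNA. The x axis is the read length in nt, the y axis the percentage of the reads on that gene; lines are means over 9 PANDORA-seq or 10 traditional RNA-seq libraries, bands run from the lowest to the highest library, and grey marks 20 to 24 nt. Mir6240 has its highest point at 32 nt in PANDORA-seq (35.5%), outside the grey band, and 18S rRNA at 30 nt. Reads with more than 1 mismatch are not plotted.

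Other hairpins give a scale for these lengths. Of the 2167 hairpins with reads, those with few reads included, 426 had at least 50% of them at 20 to 24 nt over all libraries together. Most hairpins thus fell below this line, as the 2 did. In shares over all reads, hairpins with many reads weigh most. In traditional RNA-seq, 89.7% of the reads on all hairpins other than the 2 were 20 to 24 nt long (range 87.1% to 93.0%), against 21.8% for Mir6240 and 25.03% for Mir6236. For the 7 miRNAs taken for comparison, known from sperm or widely expressed, the group means lay between 80.7% (Mirlet7f-1) and 99.0% (Mir148a) in PANDORA-seq and between 84.7% and 99.5%, of the same hairpins, in traditional RNA-seq. The lowest library was at 72.0%, for Mir191 in PANDORA-seq. The 13 hairpins of the marker lists given at the end spread more widely, and several had a lower share in PANDORA-seq, where they had few reads: Mir200c was at 79.2% in PANDORA-seq control and 97.2% in traditional control libraries, Mir200a at 77.1% and 93.2%, and Mir144 at 0% and 36.9%. In PANDORA-seq, however, the other hairpins together reached 12.8%, against 15.8% for Mir6240 and 33.3% for Mir6236, and averaged 29.6 nt. Long reads on a hairpin were thus not particular to the 2. Fragments of 18S rRNA averaged 33.4 nt in PANDORA-seq, against 27.7 nt in traditional RNA-seq, and 7.61% and 16.4% of them were 20 to 24 nt long.

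The ends of the Mir6240 reads lay at few positions in PANDORA-seq and were more scattered in traditional RNA-seq. Position 57 was the commonest start of Mir6240 reads and position 88 the commonest end, each taken over all 19 libraries with equal weight. These are ends of reads with at most 1 mismatch. Most reads over both positions 61 and 90, where the reads differ from the hairpin, are left out. A read that starts at position 57 is thus seldom counted when it runs past position 89. In the wider match described further on, the commonest PANDORA-seq read, by mean over libraries, ran from position 48 to 92. In PANDORA-seq control libraries, 41.5%, 48.6%, 55.5% and 46.8% of the reads (replicates 1 to 4) started at position 57, and in DCHP libraries 44.3%, 46.1%, 45.9%, 49.4% and 37.9% (replicates 1 to 5). The traditional libraries lay between 3.79% and 14.7%, below every PANDORA-seq library. A second start at position 48 took 19.8% ± 7.61 (n = 4) and 20.6% ± 6.90 (n = 5) of the PANDORA-seq reads of control and DCHP, and 24.9% ± 13.3 and 13.2% ± 10.2 (n = 5 each) of the traditional ones. End position 88 held 50.1% ± 4.998 of the PANDORA-seq reads (n = 9) and 10.2% ± 4.00 of the traditional ones (n = 10). In traditional control libraries positions 89 and 92 were the leading ends, with 24.3% and 17.4%.

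Mir6236 reads started most often at position 3, 31.2% ± 4.85 in PANDORA-seq (n = 9) and 6.97% ± 6.29 in traditional RNA-seq (n = 10). Traditional control replicate 5, at 23.9%, was the one traditional library near the PANDORA-seq range of 25.9% to 40.1%. The commonest end, position 49, was at 12.6% ± 3.88 and 15.3% ± 3.51. In PANDORA-seq more reads ended at position 33 (25.8% of control and 24.1% of DCHP reads). These too are ends of reads with at most 1 mismatch. In the wider match described further on, the 3 leading PANDORA-seq reads of Mir6236 started at positions 35, 46 and 46. They ended at positions 73, 80 and 86.

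Depth along the hairpins was uneven. On Mir6240 the mean depth in PANDORA-seq rose from 26.7 RPM at position 44 to 1203 RPM at position 48 and to 5458 RPM at position 60, and fell to 0.412 RPM at position 96. On Mir6236 it was 59.7 RPM at position 12 and 30.2 RPM at position 36, and 0.0651 RPM at position 60, before the mature miRNA begins. Reads with at most 1 mismatch cannot cover 2 bases at which the sequenced RNA differs from the hairpin, so a wider match was added after the mismatches had been seen: reads of at least 25 nt that lie within the hairpin without gaps, share an exact run of 10 nt with it and differ at no more than 20% of their bases. With it, the depth of Mir6240 continued to position 108 (1823 RPM in PANDORA-seq), and that of Mir6236 rose to 362 RPM at position 60 and 381 RPM at position 67, where the mature miRNA begins, and was 129 RPM at position 84.

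**Figure D2:**
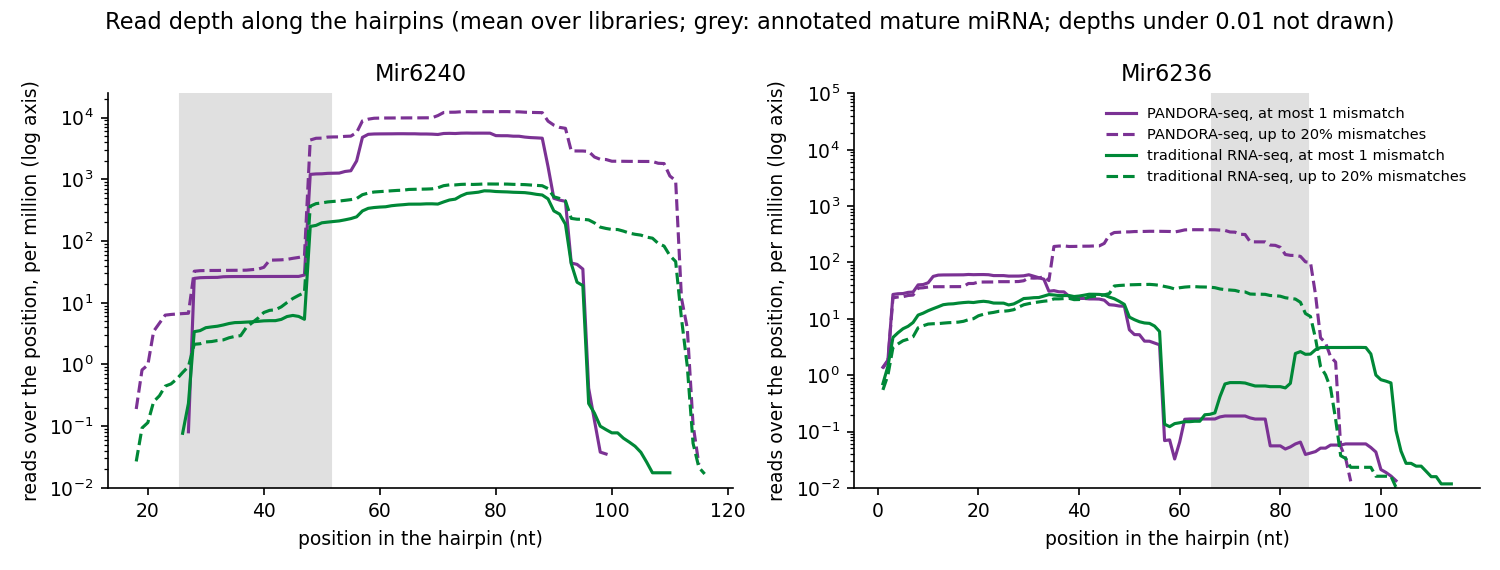
Read depth along the hairpins. The x axis is the position in the hairpin in nt, the y axis the mean RPM over each position on a log axis; solid lines are reads of 15 to 45 nt with at most 1 mismatch, broken lines are reads of at least 25 nt with up to 20% mismatches, and grey marks the annotated mature miRNA. Mir6240 is deepest to the right of its mature miRNA, and the broken lines go on where the solid ones fall.

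Nearly every read on Mir6240 differed from the hairpin. In PANDORA-seq control, 99.4% ± 0.07 (n = 4) of its reads had 1 mismatch, and in PANDORA-seq DCHP 99.2% ± 0.17 (n = 5). Traditional libraries had 89.9% ± 3.75 (control) and 87.8% ± 1.08 (DCHP, n = 5 each). The share was higher in PANDORA-seq by 9.48 percentage points in control and 11.3 points in DCHP libraries, with no overlap of the methods (two-sided exact permutation test, p = 0.00794 each, the smallest p that 4 or 5 libraries against 5 can give; adjusted p = 0.00794 over 4 tests). Mir6236 went the other way: 11.6% ± 2.96 (n = 4) and 11.8% ± 0.73 (n = 5) of its PANDORA-seq reads had a mismatch in control and DCHP, and 39.7% ± 1.48 and 39.7% ± 3.83 (n = 5 each) of its traditional reads. These were differences of -28.1 and -27.9 points (the same exact permutation test, p = 0.00794 and adjusted p = 0.00794 for each, which is the smallest possible). Libraries of the same number deviated together between the methods, and with the numbers as pairs the smallest p that 4 and 5 pairs allow is 0.125 and 0.0625; both members reached it in control and in DCHP, and no paired test passed (exact sign-flip test, adjusted p = 0.125 for all 4). These are shares of reads with 0 or 1 mismatch, since reads with more are not matched. In the wider match, of reads of at least 25 nt, at least 2 mismatches were present in 89.6% of the Mir6236 reads in PANDORA-seq (77.1% to 95.8% by library) and in 79.3% of those in traditional libraries (70.1% to 91.5%), and for Mir6240 in 61.7% (54.0% to 68.5%) and 66.2% (52.6% to 80.7%). The means thus stood in the opposite order to the shares above for both members, with overlapping libraries, and were not tested. Of the wider-match reads over a position where the reads differ from the hairpin, 99.3% (Mir6240) and 98.7% (Mir6236) had the base of the reads at all such positions covered. The number of such mismatches in these reads thus followed from the positions that they covered. Read length, known when the hairpins were chosen, moved with the shares of 1 mismatch. The permutation tests above do not separate the 2, and the part of length was not tested.

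**Figure D3:**
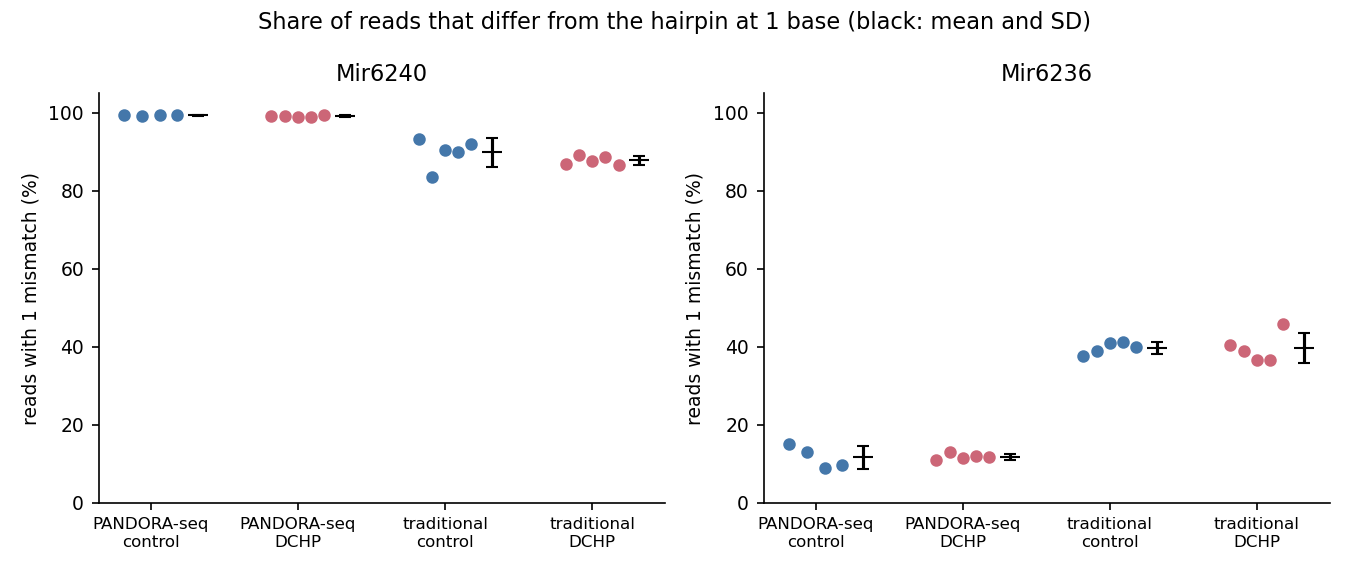
Share of reads with 1 mismatch, by library. The y axis is the percentage of the reads on each hairpin that differ from it at 1 base, with 4 or 5 libraries per group and the mean and SD in black. On Mir6240 the PANDORA-seq libraries lie between 98.95% and 99.5% and the traditional ones between 83.7% and 93.4%, and on Mir6236 they lie between 8.80% and 15.1% and between 36.6% and 45.9%.

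The mismatches fell at few positions. They are written with the base of the hairpin, its position from the 5′ end and the base of the read. T61G made up 91.5% of the mismatched Mir6240 reads in PANDORA-seq (84.3% to 95.0% by library) and 51.4% in traditional RNA-seq (28.8% to 76.1%). G90T made up 7.77% and 45.2%. A read that covered both positions would have 2 mismatches and was not counted, so the 2 shares trade off by construction. On Mir6236, G53C was the commonest, at 40.1% of the mismatched reads in PANDORA-seq, against 39.6% in traditional RNA-seq.

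In the wider match the reads held 1 sequence that was not the hairpin's. Mir6240 had 4910468 such reads and Mir6236 156575. The reads differed from Mir6240 at 15 positions and from Mir6236 at 8, among positions with at least 1000 covering reads. At position 61, 99.8% of 3766276 covering reads had the base of the reads and 0.0406% that of the hairpin, and at position 90 the shares were 99.6% and 0.0570%. At position 53 of Mir6236 they were 99.8% and 0.0631% of 125113 reads. Of 4902895 reads that covered a differing position of Mir6240, 1005 (0.0205%) had the base of the hairpin at all that they covered, and of 140088 on Mir6236, 28 (0.0200%). The stretch of Mir6240 with the deepest coverage, positions 48 to 111 with at least 100000 reads over each, is shown as the reads have it and as the hairpin has it, with the 7 differing bases in capitals.
Mir6240, reads: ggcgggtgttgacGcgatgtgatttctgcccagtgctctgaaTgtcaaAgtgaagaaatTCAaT
Mir6240, hairpin: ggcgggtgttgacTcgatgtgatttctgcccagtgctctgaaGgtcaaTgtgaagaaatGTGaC

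The reads of Mir6236 joined into a stretch of 87 nt, positions 3 to 89, of which the first 50 bases match the hairpin and the 8 differing bases lie in the rest, most of them near or within the mature miRNA.
Mir6236, reads: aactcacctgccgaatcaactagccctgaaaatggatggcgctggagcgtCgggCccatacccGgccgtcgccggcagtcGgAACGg

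By mean over the libraries of a method, the commonest read of the wider match on Mir6240 was the same in both methods. It did not lead in the control groups alone, where the 32-nt sequence was ahead in PANDORA-seq (2095 against 2073 RPM) and the 42-nt sequence in traditional RNA-seq (142 against 96.7 RPM), differences within the SD of either read. It ran over positions 48 to 92, carried T61G and G90T, and was 45 nt long, the longest read length in the files. It had a lowest, median and highest library of 1466, 2439 and 5501 RPM in PANDORA-seq (n = 9) and 27.9, 80.8 and 264 RPM in traditional RNA-seq (n = 10). With the match of at most 1 mismatch it is not counted at all.
Mir6240, positions 48 to 92: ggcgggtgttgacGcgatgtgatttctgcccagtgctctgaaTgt

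The commonest read of the wider match on Mir6236 in PANDORA-seq was 39 nt long, had 3 mismatches (G53C, A57C and A66G) and a median of 60.6 RPM. It ended at position 73, inside the mature miRNA.
Mir6236, positions 35 to 73: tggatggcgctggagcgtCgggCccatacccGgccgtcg

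Most reads of the 2 hairpins matched no other hairpin, rRNA or small RNA of the reference. Of the 5 rRNAs, 18S was matched by 1 read of Mir6236, and the others by 0 reads of either member. In PANDORA-seq, at most 0.00230% of the Mir6240 reads and 0.0853% of the Mir6236 reads of a library also matched another hairpin, and at most 0.0902% and 0.0545% an RNA of another class, the rRNAs included. In traditional RNA-seq, where reads were shorter, up to 0.291% and 2.52% matched another hairpin and up to 5.89% and 1.48% an RNA of another class. Antisense reads numbered 1 to 9 per PANDORA-seq library and 28 to 108 per traditional library on Mir6240, and 0 to 3 on Mir6236. The 28S rRNA was not analysed here, and whether these reads match it was not tested.

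Mir6240 was the hairpin with the most reads in PANDORA-seq. Control libraries had 5206, 4942, 6850 and 7178 RPM (replicates 1 to 4) and DCHP libraries 7031, 5290, 7797, 5461 and 4491 RPM (replicates 1 to 5), so that the groups overlapped throughout. In traditional RNA-seq, control libraries had 1416, 420, 875, 692 and 929 RPM and DCHP libraries 478, 873, 826, 590 and 526 RPM. The counting error was at most 0.767% of a value. By mean RPM, Mir6240 ranked 1 of 2198 hairpins in both PANDORA-seq groups and 32 in both traditional groups; per nt of hairpin it ranked 5 in the former and 33 and 38 in the latter. It made up 37.2% to 63.8% of all reads on hairpins in PANDORA-seq, against 0.248% to 2.80% in traditional RNA-seq. The study expressed small RNAs relative to total miRNA, and whether reads on Mir6240 were in that total is not given in the sources used here.

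Mir6236 was much less abundant. PANDORA-seq control libraries had 89.3, 69.4, 63.4 and 74.8 RPM and DCHP libraries 74.3, 89.02, 78.2, 95.6 and 93.1 RPM. Traditional control libraries had 49.7, 87.3, 58.5, 35.2 and 38.2 RPM and DCHP libraries 29.5, 73.5, 49.9, 28.7 and 57.6 RPM. Values of control and DCHP overlapped in both methods, and the highest traditional libraries reached the PANDORA-seq range. In the wider match the methods lay further apart, at a mean of 432 RPM (134 to 824 by library) in PANDORA-seq and 56.8 RPM (20.2 to 170) for traditional libraries, of which traditional DCHP replicate 2 was the one above the lowest PANDORA-seq library. Per nt it ranked 66 and 64 in PANDORA-seq control and DCHP and 198 and 221 in the traditional groups.

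**Figure D4:**
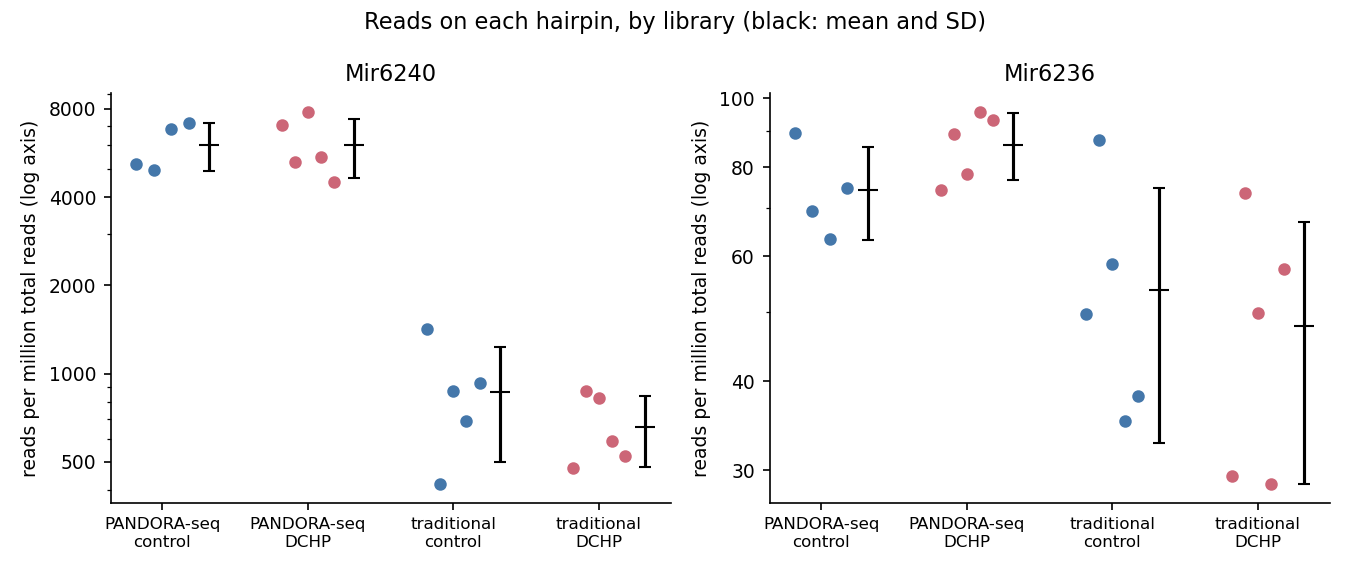
RPM on each hairpin, by library, on a log axis, with 4 or 5 libraries per group and the mean and SD in black. On Mir6240 the PANDORA-seq libraries lie between 4491 and 7797 RPM and the traditional ones between 420 and 1416 RPM, and within each method control and DCHP overlap.

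DCHP did not detectably change the reads with at most 1 mismatch on either hairpin. Reads with more mismatches were not tested for DCHP. They were 61.7% (Mir6240) and 89.6% (Mir6236) of the wider-match reads in PANDORA-seq. In the fit over all hairpins (edgeR quasi-likelihood test, with calls at more than 2-fold and an adjusted p under 0.1), 0% of the 638 hairpins tested in PANDORA-seq and 0% of the 1052 tested in traditional RNA-seq were called, with 71 and 131 at an unadjusted p below 0.05; DESeq2 called 0 in each, with 79 and 46. On the log2 scale, DCHP against control gave -0.01 ± 0.23 (SE) for Mir6240 and 0.21 ± 0.22 for Mir6236 in PANDORA-seq (edgeR adjusted p = 0.9996 and 0.9705), where the median of all hairpins was 0.06. In traditional RNA-seq it gave -0.40 ± 0.34 and -0.17 ± 0.34 (adjusted p = 0.43 and 0.74), where the median of all hairpins was 0.40. Both values thus lay below the shift of the whole table, at its percentiles 12.3 and 15.5. The effect of DCHP in PANDORA-seq minus that in traditional RNA-seq was 0.39 ± 0.45 and 0.38 ± 0.42 (edgeR interaction, adjusted p = 0.69 for each), and 0% of 615 hairpins passed, with 98 at an unadjusted p below 0.05 and 0 by DESeq2 with 82. When 1 library was left out, this count went from 0 up to 80, with 58 and 65 without PANDORA-seq control replicates 1 and 2, 80 without PANDORA-seq DCHP replicate 1, and 68, 47 and 57 without traditional DCHP replicates 1, 2 and 4; neither member was among them.

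The form of the reads with at most 1 mismatch did not differ detectably with DCHP either. Mean length, the shares of reads at 20 to 24 nt, with 1 mismatch, at the commonest start and at the commonest end were compared for both members in both methods, and 0 of 20 comparisons passed 0.05 after adjustment (two-sided exact permutation tests, adjusted p from 0.529 to 0.992). The smallest unadjusted p values were 0.0635, for mismatches on Mir6240 in PANDORA-seq (99.2% in DCHP against 99.4% in control), and 0.0714, for its mean length in traditional RNA-seq (23.3 nt ± 2.07 against 25.9 nt ± 2.14, exact permutation test, n = 5 each). For that length the DCHP libraries were at 23.1, 26.3, 20.7, 23.95 and 22.3 nt and the controls at 26.1, 24.2, 24.48, 25.3 and 29.5 nt.

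To relate the members to rRNA fragments, log2 RPM of reads with at most 1 mismatch was correlated over libraries within each method. The 5 rRNAs were 18S, 5S and 5.8S of the cytoplasmic ribosome and the mitochondrial 12S and 16S. None of the 20 relations passed 0.05 after adjustment (permutation of pairings, lowest adjusted p = 0.212 for Pearson's r and 0.323 for Spearman's rho). This count depended on the scale: per read on hairpins of mostly 20 to 24 nt, a small divisor that both quantities then share, 13 of the 20 passed. In PANDORA-seq (n = 9), the members stood on opposite sides of 18S rRNA, which took 183039 to 285075 RPM. Mir6240 had r = 0.55 (exact permutation p = 0.124) and rho = 0.53 (p = 0.148) with 18S, and r = 0.80 without the 2 libraries farthest from the 18S median. Mir6236 had r = -0.73 (exact permutation p = 0.0312, adjusted p = 0.212) and rho = -0.63 (p = 0.0760), and r = -0.82 without those libraries. With 5S rRNA the signs were reversed, at r = -0.62 for Mir6240 (exact permutation p = 0.0803, rho = -0.58, p = 0.108) and 0.69 for Mir6236 (p = 0.0400, rho = 0.65, p = 0.0666); without the 2 farthest libraries they were -0.63 and 0.44. With 5.8S rRNA Mir6240 had r = 0.74 (exact permutation p = 0.0273, rho = 0.65, p = 0.0666), and 0.58 without them. Few of the reads counted on 5.8S matched it exactly in either method, and most of those in PANDORA-seq were 20 to 24 nt long. Fragments of 5.8S with more than 1 mismatch were not counted, so this relation does not cover them. Mir6236 and 12S rRNA had the lowest p for rho of all relations (rho = -0.78, exact permutation p = 0.0172, adjusted p = 0.323), with r = -0.66 (p = 0.0507, adjusted p = 0.212) and r = -0.70 without the 2 farthest libraries. The other relations in PANDORA-seq had unadjusted p from 0.0640 to 0.621 for Pearson's r. All of these are shares of the same total in a library, and no difference between the members' relations was tested. Wider-match reads of the members were not correlated with rRNA, so whether these relations hold for them was not tested.

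In traditional RNA-seq (n = 10), Mir6240 had r = 0.54 with 18S rRNA (permutation p = 0.108, rho = 0.42, p = 0.229), which rested on the 2 farthest libraries (r = 0.20 without them), and Mir6236 had r = 0.30 (permutation p = 0.386, rho = 0.28, p = 0.425; 0.26 without them). With mitochondrial 12S and 16S rRNA Mir6240 had r = -0.62 and -0.51 (permutation p = 0.0534 and 0.127, rho = -0.47 and -0.42, p = 0.177 and 0.230), at 0.03 and -0.63 without the farthest libraries. When 1 library was left out these r lay between -0.79 and -0.23 for 12S and between -0.82 and -0.15 for 16S. With 5S rRNA Mir6240 had r = 0.09 (permutation p = 0.795, rho = 0.33, p = 0.347), and 0.72 (p = 0.0481) without the 2 farthest libraries. The remaining relations of this method had unadjusted permutation p from 0.122 to 0.710 for Pearson's r. The members themselves had r = -0.55 in PANDORA-seq (exact permutation p = 0.126, rho = -0.32, p = 0.410) and 0.02 in traditional RNA-seq (p = 0.954, rho = 0.01).

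Relative to 18S rRNA, the distance between the methods depended on the match. With at most 1 mismatch Mir6240 had 26.2 ± 6.45 and 26.5 ± 2.20 reads per 1000 reads on 18S in PANDORA-seq control and DCHP (n = 4 and 5) and 25.2 ± 10.5 and 21.9 ± 3.67 in traditional control and DCHP (n = 5 each). Mir6236 was at 0.328 ± 0.10 and 0.393 ± 0.10 in PANDORA-seq and at 1.58 ± 0.70 and 1.62 ± 0.67 in traditional RNA-seq. In the wider match the reads of the members were of at least 25 nt, but the divisor stayed the same. It held reads on 18S of any length with at most 1 mismatch. Those averaged 33.4 nt in PANDORA-seq, against 27.7 nt in traditional RNA-seq. Mir6240 then had 53.2 ± 16.04 and 58.3 ± 11.2 reads per 1000 reads on 18S in PANDORA-seq control and DCHP, and 30.2 ± 14.3 and 26.9 ± 12.7 in the traditional groups. Mir6236 then had 1.99 ± 1.62 and 1.98 ± 0.66 in PANDORA-seq and 1.54 ± 0.64 and 2.05 ± 1.90 in the traditional groups. With this divisor, the gap between methods seen with at most 1 mismatch was absent from its means. These ratios are a description with no test, and the part of the divisor in the distance between the methods was not tested.

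**Figure D5:**
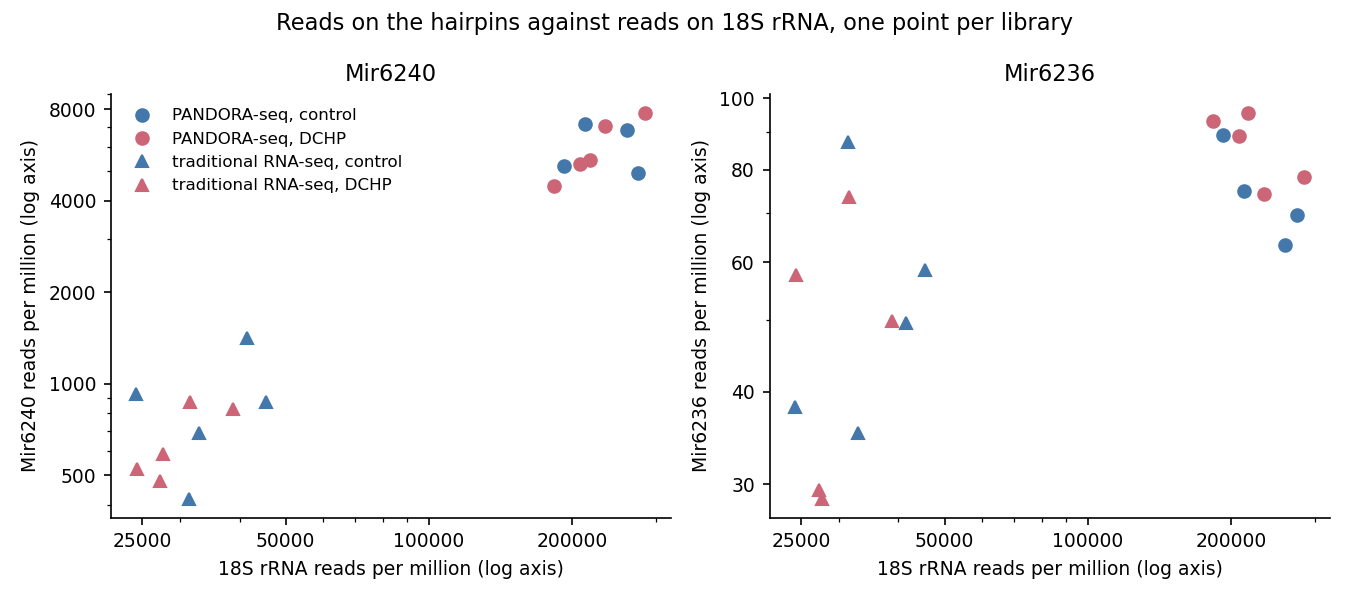
RPM on Mir6240 and Mir6236 against RPM on 18S rRNA, both on log axes, with 1 point per library. Circles are PANDORA-seq and triangles traditional RNA-seq, blue is control and red is DCHP; the methods form separate clusters, with 18S rRNA at 183039 to 285075 RPM in PANDORA-seq, against 24252 to 45457 RPM in traditional RNA-seq.

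The hairpins whose log2 RPM followed the members most closely are given as a description, over libraries that share their totals. For Mir6240 in PANDORA-seq they were Gm27989, Gm27437 and Gm27375 (r = 0.96, 0.92 and 0.91 over 9 libraries), and in traditional RNA-seq Gm24513, Mir292 and Gm25747 (0.77, 0.72 and 0.71 over 10 libraries). For Mir6236 they were Gm25262, Mir3620 and Gm47295 (0.90, 0.90 and 0.87), and Gm24187, Gm23388 and Gm23935 (0.89, 0.89 and 0.89). No hairpin was among the 3 for both members or in both methods. The 3 were the highest of 637 hairpins in PANDORA-seq and of 1051 in traditional RNA-seq. The median r of all these was 0.07 and -0.22 for Mir6240 and -0.09 and 0.12 for Mir6236. How high the best of so many would lie by chance was not tested.

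Marker miRNAs of germ cells and of other cell types were read in all groups. Germ cell miRNAs (Mir34b, Mir34c and Mir449a) summed to 151 to 350 RPM in traditional control and 249 to 802 RPM in traditional DCHP libraries. A read counted for each hairpin it matched, and Mir34b and Mir34c had nearly equal means (128 and 127 RPM in traditional control), so this sum may count the same reads on both. Epididymal epithelium (5 hairpins of the Mir200 family) summed to 684 to 1846 and 995 to 5931 RPM, smooth muscle (Mir143 and Mir145a) to 1366 to 6129 and 1626 to 6928 RPM, and blood cells (Mir451a, Mir144 and Mir486) to 51.7 to 181 and 36.7 to 91.5 RPM in the same 2 groups. In PANDORA-seq, control and DCHP libraries together, the lists summed to 1.38 to 11.4, 3.26 to 59.4, 2.60 to 112 and 0.634 to 2.43 RPM. The upper values were in DCHP libraries, and so was the lowest value of blood cells. Means there did not all go 1 way. Mir143 was at 7.95 RPM in control and 32.8 RPM in DCHP, but Mir145a at 0.338 and 0.305 RPM. The blood cell hairpins had lower means in DCHP (Mir486 1.71 and 1.47 RPM). The part of such cells in the reads on Mir6240 and Mir6236 was not tested, and fewer cells of a type and less RNA per cell cannot be told apart.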

How the data were processed

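Small RNA of mouse sperm was sequenced in 19 libraries (SE75). The authors deposited counts: per library, each distinct cleaned sequence of 15 to 45 nt with its number of reads, not normalized and without molecular identifiers, so errors cover counting only. The settings of adapter removal are not given in the sources used here. The study matched reads with SPORTS1.1 with 1 mismatch allowed, on mm10. The text and the labels differ in whether AlkB or the kinase came first.

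From these counts, each sequence was matched here without gaps, with at most 1 mismatch, to 2198 GENCODE hairpins (4 that overlap a tRNA locus were left out), of which 2167 had reads, to 18S, 5S (351 genes), 5.8S (2), 12S and 16S rRNA, to 22 mitochondrial tRNAs and to 3532 other small RNA genes. A read counted for each hairpin it matched, and reads on hairpins were not counted as rRNA. Hairpins with at least 10 reads in at least 4 libraries of the method were tested with edgeR 4.0.16 in R 4.3.3, with total reads as library size, since a total of reads on hairpins would hold the members themselves. Read forms and correlations were tested by permutation (exact up to 9 libraries, 100000 draws for 10), with Benjamini-Hochberg adjustment. Alternatives were other library sizes, DESeq2 1.42.0, other filters and matches, a replicate block and leaving out each library. On simulated counts with 200 hairpins changed 8-fold, edgeR recovered 100% in each method, with 3.85% and 4.31% false calls. All hairpins had a common dispersion there and smaller changes were not simulated, so this does not show how small a change would be found.

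The members and lists were chosen with earlier results of these data known. Named were both members, the 3 leading sequences and the 3 most alike hairpins of each by method, the 5 rRNAs, and marker and comparison miRNAs. Pairing was checked from deviations over hairpins: r was over 0.1 in 4 of 4 control and 5 of 5 DCHP pairs between methods (0.161 to 0.671), taken as paired, and in 2 of 4 and 1 of 5 pairs of control with DCHP, not taken as paired. Among 36 pairs of libraries within groups, chi-square over its degrees of freedom was at least 22.5, so none was a repeat.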

Additional observations from a re-analysis of the deposited data

Results flagged for a closer look

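In 4 of 48 sets of 4 or 5 libraries (6 measures of both members in each group), 1 library stood far from the rest, where chance gives about 1 in 20. Of the Mir6240 reads, 39.4% ended at position 88 in PANDORA-seq DCHP replicate 5, against 48.7% to 52.0% in the other 4, and 15.4% in traditional DCHP replicate 4, against 6.06% to 8.45%. In traditional DCHP replicate 2, Mir6236 reads had a mean length of 21.95 nt, against 19.1 to 19.8 nt, and 6.30% of them started at position 3, against 3.47% to 4.26%. The causes were not tested.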

How the results depend on the processing

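No call on either hairpin changed under any alternative run: the adjusted p of their DCHP effects stayed between 0.340 and 0.999. The direction of small values did turn. For Mir6240 in PANDORA-seq (-0.01), the log2 change was 0.12 per read on hairpins, 0.30 per read on hairpins other than the members, 0.027 per read on hairpins of mostly 20 to 24 nt, 0.49 for exact matches and 0.082 with the replicate block; in traditional RNA-seq it was 0.024 for exact matches. Leaving out 1 library gave -0.12 to 0.086 (Mir6240) and 0.14 to 0.31 (Mir6236) in PANDORA-seq, and -0.57 to -0.15 and -0.38 to 0.075 in traditional RNA-seq, the last above 0 only without control replicate 2. Hairpins called in PANDORA-seq, 0 before, were 15 with no filter on low counts, 1 for exact matches and 1 with the replicate block. Those called for the interaction were 0 to 80 when 1 library was left out. Comparisons of mismatch shares between methods that passed were 4, and 0 with the replicate block, whose pairs cannot reach 0.05. Per read on hairpins of mostly 20 to 24 nt, 13 of the 20 relations with rRNA passed, where 0 did per total read; both quantities then share a small divisor. The other counts kept their values, and the cause of the changes was not tested otherwise. Reads over 45 nt and molecules that share a sequence are beyond these counts.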
